A study of Saccharomyces cerevisiae with 12 samples.

Results

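The genes described here are 10 of the 5974 open reading frames on the arrays. They were picked by systematic name because they encode the enzymes that turn acetyl-CoA into squalene in Saccharomyces cerevisiae, a rule that uses no measured value. In the order of the pathway they are ERG10 (YPL028W), ERG13 (YML126C), HMG1 (YML075C), HMG2 (YLR450W), ERG12 (YMR208W), ERG8 (YMR220W), MVD1 (YNR043W, also called ERG19), IDI1 (YPL117C), ERG20 (YJL167W) and ERG9 (YHR190W).

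The mevalonate pathway joins acetyl-CoA units into HMG-CoA, reduces it to mevalonate, and converts mevalonate by phosphorylation and decarboxylation into isopentenyl diphosphate, the building block of all isoprenoids. Farnesyl diphosphate, made from these units, is the branch point to ubiquinone, dolichol, heme A and prenylated proteins, and squalene synthase commits it to sterols. The steps up to squalene use no molecular oxygen, whereas the steps from squalene to ergosterol do, so yeast growing without oxygen takes up sterol from its medium.

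The study asked how the high mobility group box protein Ixr1 takes part in the response of yeast to low oxygen. Cells labelled ixr1 null and wild type (WT) cells, both of the EUROSCARF strain BY4741, were cultured at 30 C on 2% glucose in synthetic complete medium. With 3 conditions this gives 6 groups of 2 arrays lettered A and B. In the shift groups, a culture grown in air to an OD600 of 0.8 was bubbled with nitrogen for 3 h. In the hypoxia groups, cells spent the night in anaerobic jars below 1% oxygen, in medium given Tween 80 (0.5%) and ergosterol (20 mg/l). In the air groups, cells grew aerobically. The labels name no promoter, marker or clone for the deletion. In the hypoxia groups the low oxygen, the supplied sterol and detergent, and the overnight culture came together and cannot be told apart. Oligo-dT-primed cDNA made from total RNA and labelled with 32P was hybridised to the arrays. The signal is that of a whole culture, so fewer cells with a transcript and less of it per cell cannot be told apart.

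Every array had a mean intensity near 1, and 11.8% of all values were listed at 0. Arrays A and B of the ixr1 null shift group held 3489 and 1799 zeros, against 69 to 834 on the other 10 arrays, and the rank correlation across probes between A and B was 0.590 for ixr1 null shift and 0.692 for WT shift, against 0.830 to 0.917 in the other 4 groups. The signal of IXR1 was not absent from the arrays labelled ixr1 null, and no difference from WT was called in any condition. It read 3.60 and 3.01 in ixr1 null shift against 4.0 and 3.34 in WT shift, 0.608 and 1.13 in ixr1 null hypoxia against 0.441 and 0.399 in WT hypoxia, and 9.75 and 8.64 in ixr1 null air against 8.11 and 7.03 in WT air. The sources used here do not say where the probe lies relative to a deletion, and every direction between genotypes below rests on the labels. Summed intensities of 6 a-cell markers, which a strain of this mating type expresses, were 0.128 to 21.4 over the shift arrays, 1.41 to 3.54 over the hypoxia arrays and 16.9 to 22.3 over the air arrays; 4 alpha-cell markers summed to 0.255 to 1.67 over all arrays, and their part in the results was not tested. The genes deleted in BY4741 (HIS3, LEU2, MET17 and URA3) summed to 0.637 to 2.01, so genes the strain lacks together gave some signal on every array. Of 9 low oxygen markers 8 could be tested in hypoxia against air. In each genotype the anaerobic mannoprotein gene DAN1 and the seripauperin gene PAU7 rose and TIR1, a cell wall mannoprotein gene, fell, where 6.41% of all probes were called higher and 5.58% lower in ixr1 null and 11.9% in either direction in WT. TIR1 read 0.168 and 0.137 in ixr1 null hypoxia against 1.39 and 2.2 in ixr1 null air, and 0.0227 and 0.0693 in WT hypoxia against 0.791 and 0.886 in WT air. The other tested markers, TIR3, ANB1, HEM13, COX5B and CYC7, were not called in either genotype. AAC3, the anaerobic ADP/ATP carrier gene, was listed at 0 on every air array and so was not tested. It read 1.08 and 1.20 in ixr1 null hypoxia and 0.267 and 0.347 in WT hypoxia. After the shift DAN1 read 0 and 7.38 in ixr1 null and 0 and 2.47 in WT.

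**Figure D1:**
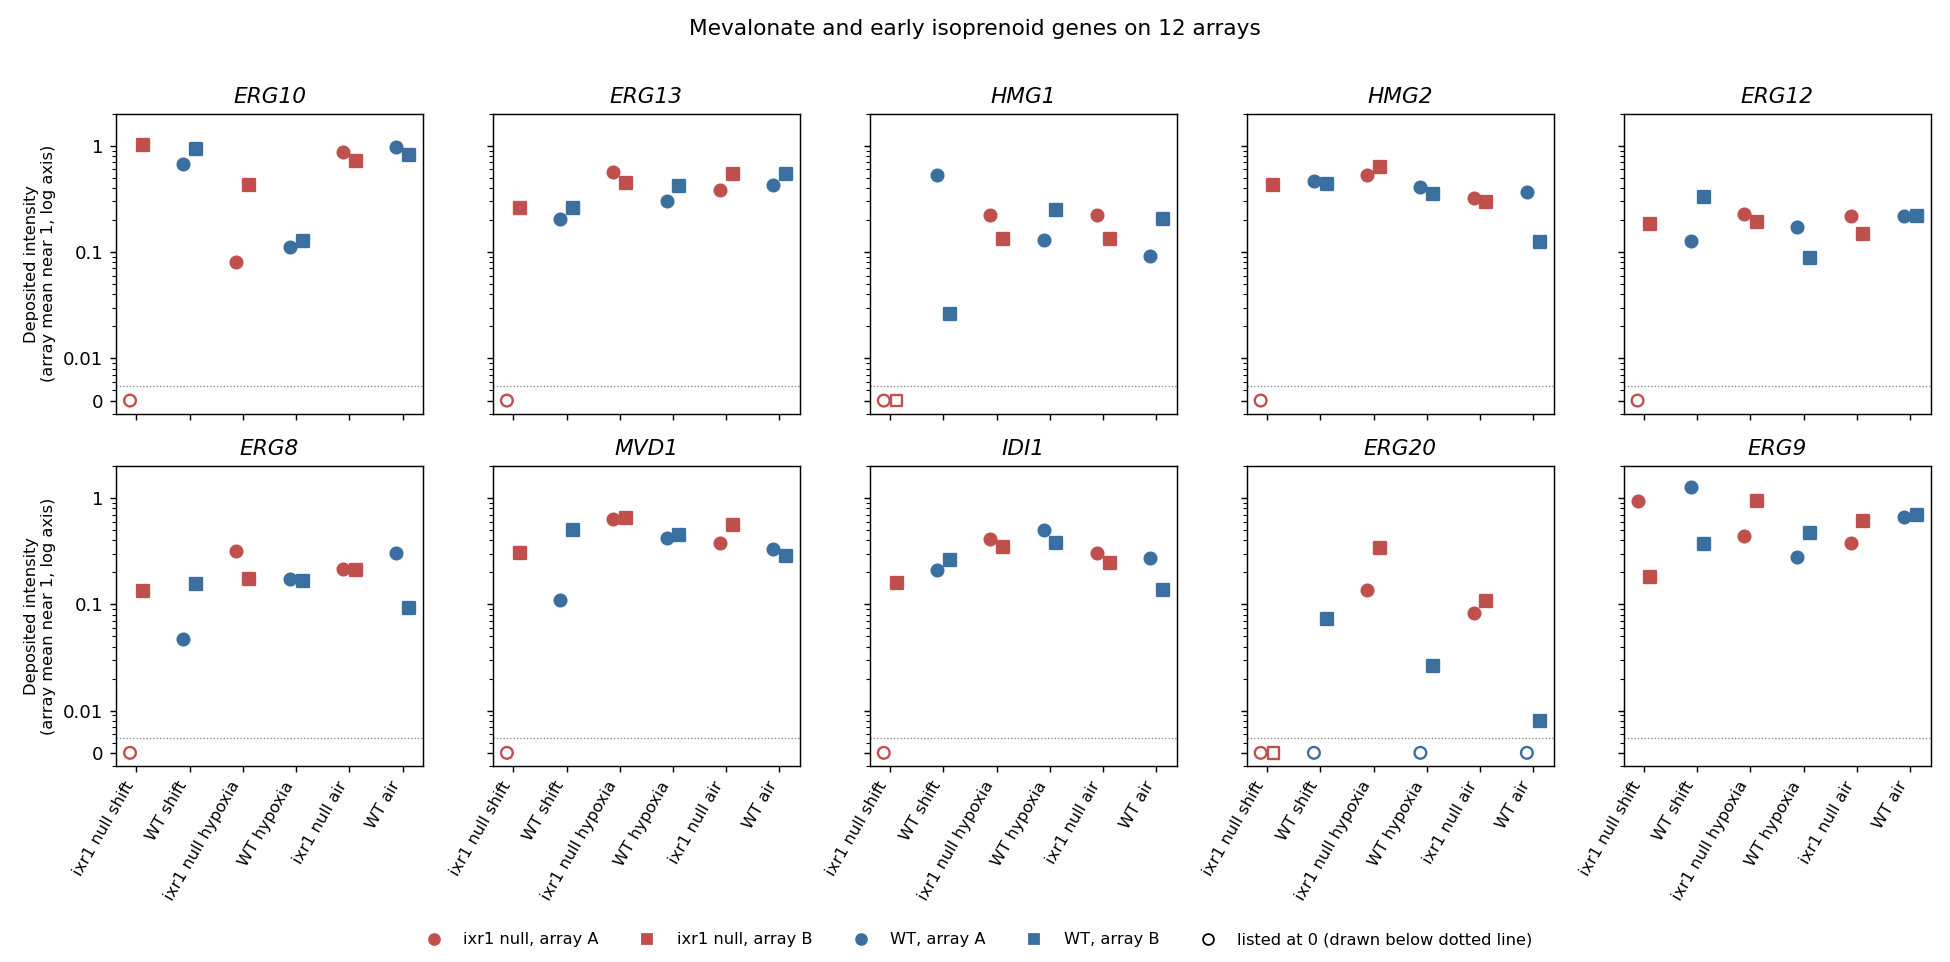
Deposited intensity (vertical log axis, array mean near 1) of the 10 genes, one panel each, in the 6 groups; circles are arrays A, squares arrays B, red ixr1 null, blue WT, and open symbols under the dotted line are readings listed at 0. The 4 ERG10 hypoxia readings lie between 0.0806 and 0.424, below all 4 air readings, and 9 of the 10 genes are listed at 0 on ixr1 null shift array A.

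Of the 120 readings of the 10 genes, 14 were listed at 0, and 9 of these were on ixr1 null shift array A. A further 4 readings lay below the 10th percentile of the positive values of their array. Tests were made on log2 of the quantile-normalized intensity with limma, and a gene entered a comparison only if both arrays of each group had a positive value. Differences are log2 differences ± SE with 2 arrays a group, and adjusted p-values are limma's after Benjamini-Hochberg adjustment over every probe tested in that comparison, called at 0.05. The labels do not say whether A and B are separate cultures or repeat measurements. The p-values therefore cover only the spread between arrays A and B, possibly a technical one. For each gene that spread was pooled over the groups and moderated by limma, not taken from the compared groups alone.

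ERG10 encodes acetoacetyl-CoA thiolase, which joins 2 acetyl-CoA units and opens the pathway, and it was the one gene of the 10 that passed the test in any comparison. It read 0.0806 and 0.424 in ixr1 null hypoxia against 0.868 and 0.726 in ixr1 null air, and 0.111 and 0.128 in WT hypoxia against 0.971 and 0.821 in WT air. All hypoxia readings were below all air readings. The ixr1 null hypoxia pair lay 2.57 apart on the log2 normalized scale, against at most 0.41 in the other groups with both values. The SE of each ERG10 difference pools the spread over these groups, so the wide pair enters the WT comparison too. In WT, ERG10 fell by 3.11 ± 0.75 on the log2 scale in hypoxia against air, which is 8.65-fold lower (95% interval -4.79 to -1.43, limma adjusted p = 0.0238). On the same WT hypoxia arrays the probe of URA3, which the strain lacks, read 0.117 and 0.0762. LEU2, also deleted, was listed at 0 on both, and the 4 deleted genes together summed to 0.637 to 0.646. The deleted genes thus gave no single background level. The fold may be limited by background, and the part of background in it was not tested. In ixr1 null arrays the difference was -2.63 ± 0.76, 6.2-fold, and missed the threshold (95% interval -4.37 to -0.89, limma adjusted p = 0.0607). The WT call was lost when any one of the 4 arrays it compares was left out (limma adjusted p 0.0924 to 0.130), while the fold stayed close: over all alternatives the log2 difference ran between -3.22 and -2.91.

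After the shift, ERG10 read 0.677 and 0.929 in WT, overlapping the WT air readings, and was listed at 0 on ixr1 null array A but read 1.02 on array B. The WT shift readings were thus above both WT hypoxia readings, with a log2 difference of 3.00 ± 0.75, 8.01-fold (limma adjusted p = 0.0386). This call was lost in several settings: the limma adjusted p was 0.0630 on the deposited scale and 0.0569 with the array letter as a replicate block, and ERG10 was called in 7 of the 19 alternative settings. WT shift minus WT air was -0.11 ± 0.75 (95% interval -1.79 to 1.57), and a change inside that interval was not excluded by these arrays. These comparisons share the WT hypoxia and WT air arrays.

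ERG13 encodes HMG-CoA synthase, which adds a further acetyl-CoA to give HMG-CoA. It read 0.573 and 0.448 in ixr1 null hypoxia against 0.386 and 0.547 in ixr1 null air, and 0.303 and 0.415 in WT hypoxia against 0.428 and 0.541 in WT air. The ixr1 null pairs overlapped, and the WT hypoxia readings were below the WT air readings. Neither difference passed, at 0.00 ± 0.50 in ixr1 null (limma adjusted p = 0.998) and -0.59 ± 0.50 in WT (limma adjusted p = 0.578). After the shift it read 0 and 0.261 in ixr1 null and 0.204 and 0.260 in WT. The WT shift readings were the lowest WT ones, and the difference from air, -0.89 ± 0.50, did not pass either (limma adjusted p = 0.399).

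HMG1 and HMG2 encode the paired HMG-CoA reductases, which make mevalonate, the step usually taken as the main control point of the pathway. In S. cerevisiae Hmg1 is known as the long-lived enzyme that predominates in air, and Hmg2 as the one degraded on a signal from the pathway and favoured when oxygen is short. The sequences of the array probes were not used here, so the signal of each gene may include some from the other. HMG1 read 0.221 and 0.131 in ixr1 null hypoxia against 0.223 and 0.134 in ixr1 null air, and 0.130 and 0.246 in WT hypoxia against 0.0927 and 0.205 in WT air. The pairs overlapped in both genotypes, with differences of -0.44 ± 1.71 in ixr1 null and 0.34 ± 1.65 in WT, the widest errors of the 10 genes. That width goes with the WT shift arrays, where HMG1 read 0.535 on A and 0.0264 on B, the second of which is below the 10th percentile of that array. It was listed at 0 on both ixr1 null shift arrays.

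HMG2 read 0.533 and 0.633 in ixr1 null hypoxia against 0.319 and 0.293 in ixr1 null air, and 0.407 and 0.355 in WT hypoxia against 0.370 and 0.125 in WT air. The ixr1 null readings did not overlap and were higher in hypoxia, and the deposited WT readings overlapped. The differences were 0.90 ± 0.52 in ixr1 null (95% interval -0.29 to 2.09, limma adjusted p = 0.357) and 0.63 ± 0.52 in WT (95% interval -0.54 to 1.80, limma adjusted p = 0.566). After the shift HMG2 read 0 and 0.431 in ixr1 null, and 0.463 and 0.433 in WT, both above the WT air readings. WT shift minus WT air was 1.21 ± 0.52 (95% interval 0.04 to 2.37), the smallest p of the 10 genes in that comparison, with an unadjusted limma p of 0.0438 that became 0.300 after adjustment. Neither reductase gene passed in any comparison in which it was tested.

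The 3 genes after the reductases convert mevalonate to isopentenyl diphosphate. ERG12, mevalonate kinase, read 0.227 and 0.193 in ixr1 null hypoxia against 0.218 and 0.148 in ixr1 null air, and 0.171 and 0.0878 in WT hypoxia against 0.217 and 0.218 in WT air. Only the WT readings were apart, lower in hypoxia, at -0.95 ± 0.65 (limma adjusted p = 0.468), against -0.10 ± 0.66 in ixr1 null. After the shift it read 0 and 0.185 in ixr1 null and 0.126 and 0.331 in WT.

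ERG8, phosphomevalonate kinase, read 0.320 and 0.173 in ixr1 null hypoxia against 0.216 and 0.209 in ixr1 null air, and 0.172 and 0.165 in WT hypoxia against 0.303 and 0.0919 in WT air. Its pairs overlapped in both genotypes, and the differences were -0.15 ± 0.67 and -0.21 ± 0.66 in ixr1 null and in WT. After the shift it read 0 and 0.135 in ixr1 null, and 0.0474 and 0.155 in WT, of which the first WT value is below the 10th percentile of its array.

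MVD1, mevalonate diphosphate decarboxylase, read 0.635 and 0.645 in ixr1 null hypoxia against 0.381 and 0.553 in ixr1 null air, and 0.419 and 0.452 in WT hypoxia against 0.329 and 0.284 in WT air. In both genotypes the deposited hypoxia readings were above the air readings without overlap, but the differences of 0.43 ± 0.64 in ixr1 null and 0.38 ± 0.63 in WT were smaller than their errors (limma adjusted p = 0.762 and 0.806). After the shift it read 0 and 0.305 in ixr1 null and 0.109 and 0.501 in WT, a spread between the WT arrays of 1.96 on the log2 normalized scale.

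IDI1 encodes isopentenyl diphosphate isomerase, which interconverts the isoprene units that condense with each other. It read 0.412 and 0.345 in ixr1 null hypoxia against 0.305 and 0.247 in ixr1 null air, and 0.498 and 0.379 in WT hypoxia against 0.272 and 0.135 in WT air. As deposited, all 4 hypoxia readings were above all 4 air readings. On the normalized scale used for the tests the ixr1 null readings overlapped, and the WT readings were higher in hypoxia without overlap. The differences were 0.28 ± 0.51 in ixr1 null (95% interval -0.88 to 1.45, limma adjusted p = 0.814) and 1.01 ± 0.51 in WT (95% interval -0.14 to 2.16, limma adjusted p = 0.294), so neither passed. After the shift IDI1 read 0 and 0.158 in ixr1 null and 0.212 and 0.260 in WT. As deposited, these WT readings lay inside the range of WT air. On the normalized scale they were above it without overlap, at 0.45 ± 0.51, and the difference did not pass (limma adjusted p = 0.701).

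ERG20 encodes farnesyl diphosphate synthase, at the branch point, and had the most zeros of the 10 genes. It was listed at 0 on both ixr1 null shift arrays, on WT shift A, WT hypoxia A and WT air A, and read 0.0730 on WT shift B, 0.0263 on WT hypoxia B and 0.00798 on WT air B. The WT hypoxia B and WT air B values are also below the 10th percentile of their arrays. Because each WT group held a zero, no WT comparison of ERG20 was made. On the ixr1 null arrays it read 0.136 and 0.337 in hypoxia against 0.0830 and 0.107 in air. The hypoxia readings were higher without overlap, at 0.93 ± 0.63 (95% interval -0.65 to 2.50, limma adjusted p = 0.471).

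ERG9, squalene synthase, commits farnesyl diphosphate to sterols and was the one gene with a positive value on all 12 arrays. It read 0.932 and 0.179 in ixr1 null shift, 1.27 and 0.371 in WT shift, 0.437 and 0.930 in ixr1 null hypoxia, 0.281 and 0.472 in WT hypoxia, 0.375 and 0.606 in ixr1 null air and 0.662 and 0.697 in WT air. In both shift groups array A was higher than array B, by 1.94 in ixr1 null and 1.81 in WT on the log2 normalized scale. Hypoxia minus air was 0.40 ± 0.80 in ixr1 null, where the readings overlapped, and -1.08 ± 0.78 in WT, where hypoxia was lower without overlap (limma adjusted p = 0.832 and 0.501). The difference between these 2 effects, 1.47 ± 1.10, gave the smallest adjusted p of the 9 genes that could be tested for it and did not pass (limma adjusted p = 0.546). Shift minus air was 0.55 ± 0.76 in ixr1 null and 0.17 ± 0.78 in WT, and the ixr1 null value turns negative on other scalings, at -0.22 on the deposited scale.

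**Figure D2:**
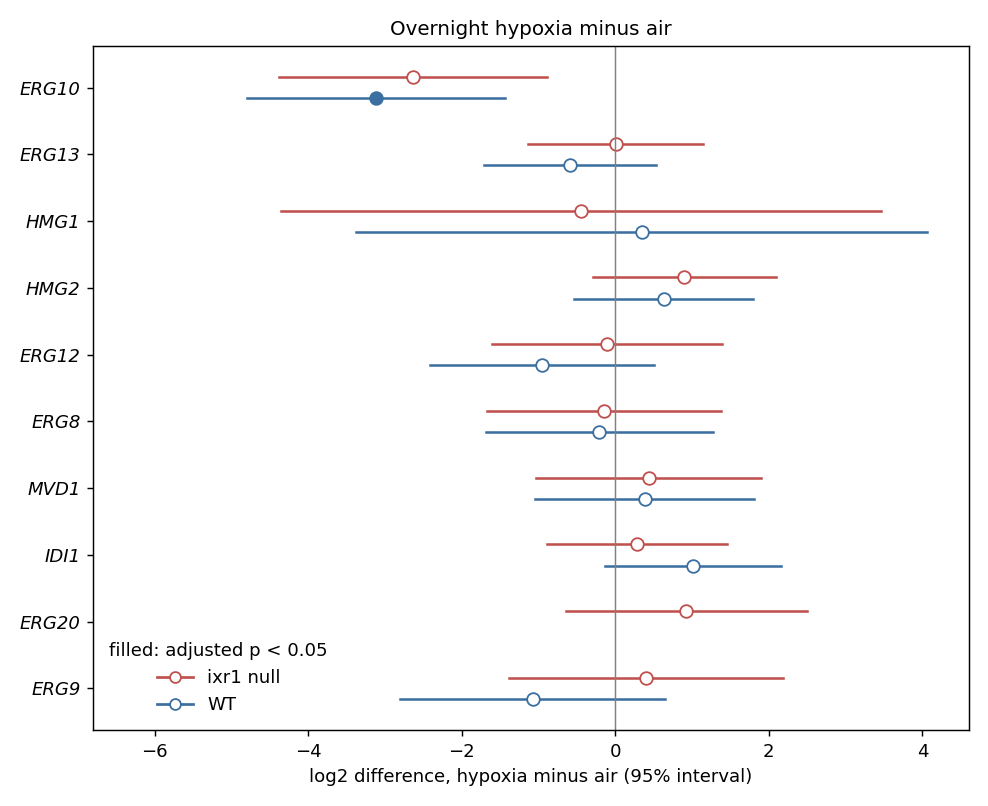
Log2 difference in normalized intensity, overnight hypoxia minus air (horizontal axis), for each of the 10 genes in ixr1 null (red, upper) and WT (blue, lower); points are limma estimates from 2 arrays a group, lines their 95% intervals, and a filled point passed an adjusted p of 0.05. WT ERG10 at -3.11 is the one filled point, and every interval other than those of ERG10 spans 0.

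Counted over the pathway in overnight hypoxia against air, 0 of 10 tested genes were called in ixr1 null arrays, where 6.41% of all 5505 probes tested were called higher and 5.58% lower. At an unadjusted limma p under 0.05 there was 1, ERG10. In WT, 1 of 9 tested genes was called, lower, where 11.9% of all 4969 probes were called in either direction and 6.84% were called lower. These counts are near the background shares and so are not a result about the pathway as a group. By sign alone, 6 genes were higher and 4 lower in ixr1 null, and 4 higher and 5 lower in WT. The median difference was 0.14 in ixr1 null against -0.20 over all probes tested, and -0.21 in WT against 0.01. Scaling moved the medians over all probes to -0.03 in ixr1 null and 0.14 in WT on the deposited scale. On that scale the sign of ERG8 turned in both genotypes and that of ERG12 in ixr1 null. Not every small difference of an uncalled gene thus had a fixed sign. The smallest fold called among all probes was 3.08 in ixr1 null and 3.10 in WT.

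After the shift against air in WT, 0 of 9 tested genes were called by limma and 1, HMG2, had an unadjusted p under 0.05, where 0.749% of 4672 probes were called. Against overnight hypoxia in WT, ERG10 alone of 9 was called, higher, where 9.03% of 4893 probes were called in either direction and 5.29% higher. Between these conditions the other 8 differences in WT ran from -1.30 for HMG1 to 1.24 for ERG9, with limma adjusted p between 0.390 and 0.818. On the ixr1 null arrays ERG9 alone could be tested after the shift. It was not called against air, where 1.97% of 2228 probes were, nor against hypoxia (0.15 ± 0.76), where 20.2% of 2229 probes were.

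Without ixr1 null shift array A, and with array B taken to vary like the other groups, 8 of the 10 genes could be tested. None was called by limma against air, where 11 of 4109 probes were (0.268%), and HMG2 had the largest difference, 1.11 ± 0.58 (limma adjusted p = 0.788). Against ixr1 null hypoxia, ERG10 was higher on array B by 3.25 ± 0.88, 9.52-fold, and was not called. As deposited it read 1.02 on array B against 0.0806 and 0.424, and 30.1% of the values of array B were listed at 0. With both shift arrays in, the median over all probes in this comparison was 0.61 after quantile normalization and -0.14 on the deposited scale. How scaling moves the fold without array A was not tested. The fold rests on array B alone, so its size is not taken as fixed.

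**Figure D3:**
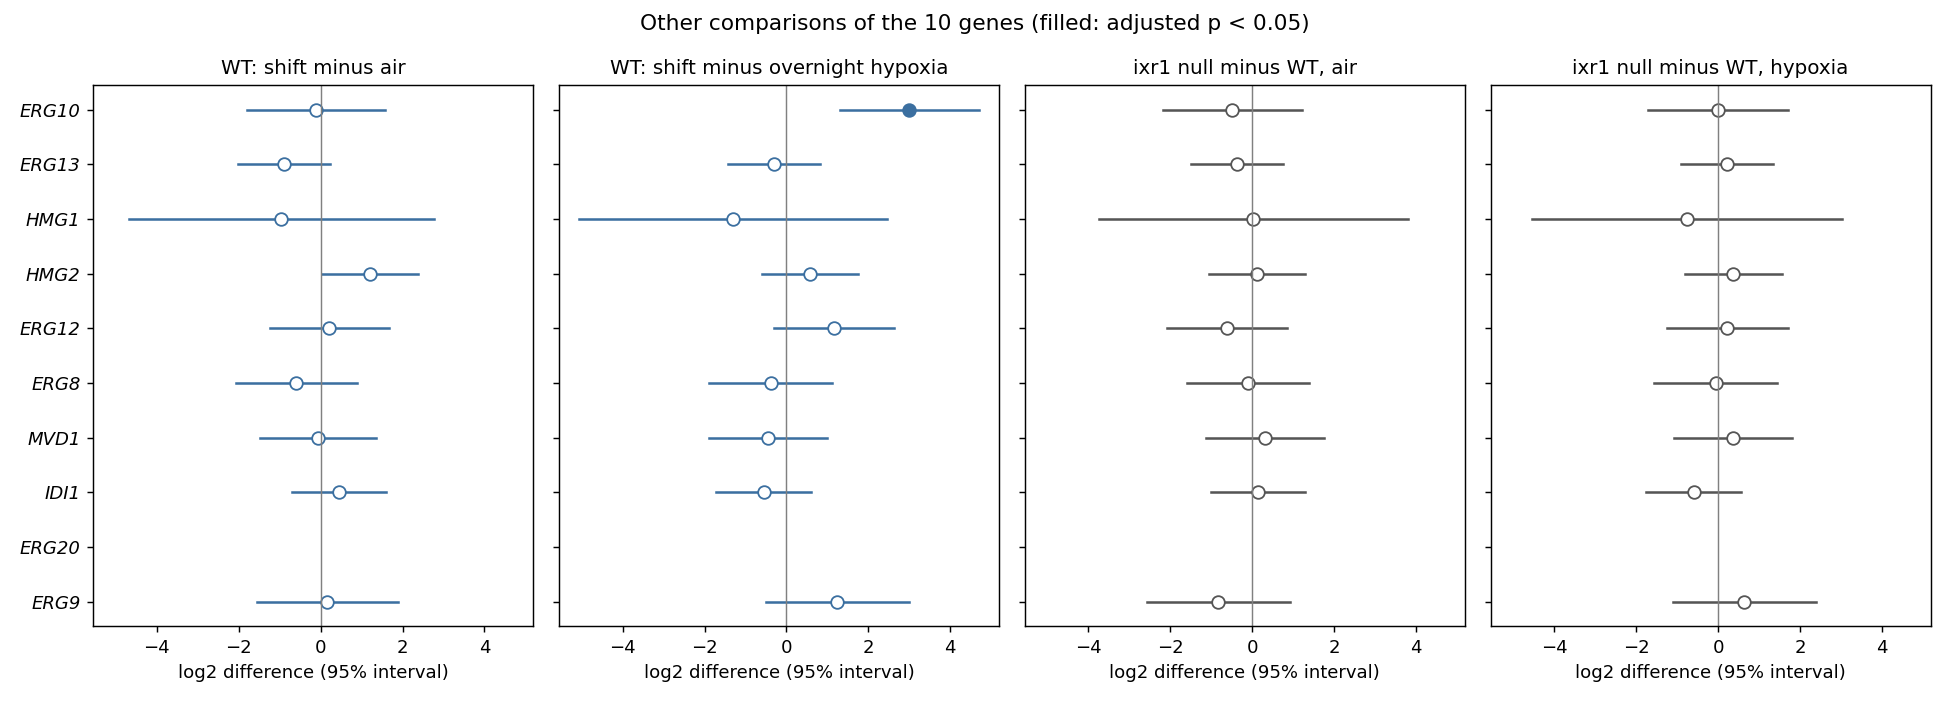
Log2 differences in normalized intensity (horizontal axes) for the 10 genes in 4 further comparisons, with 95% intervals from limma and filled points at an adjusted p under 0.05; ERG20 was not tested in these. ERG10 in WT shift minus overnight hypoxia, at 3.00, is the one filled point, and the 2 panels of ixr1 null minus WT hold none.

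Between genotypes no gene of the pathway was called in any condition. In air, ixr1 null minus WT ran from -0.83 to 0.31 over the 9 genes tested, with the lowest limma adjusted p at 0.910. ERG10 (-0.48), ERG12 (-0.62) and ERG9 (-0.83) were lower without overlap on the normalized scale and MVD1 (0.31) was higher, where 0% of 5043 probes were called and 382 had an unadjusted p under 0.05. In hypoxia the range was -0.76 to 0.64, with the lowest limma adjusted p at 0.637, and HMG2 (0.38) and MVD1 (0.36) were higher in ixr1 null without overlap, where 0.279% of 5379 probes were called. Of the 9 genes, 0 in air and 0 in hypoxia had an unadjusted limma p under 0.05. The share of all probes without overlap was not counted, so these separations are not a result about genotype. After the shift ERG9 differed by -0.45 ± 0.76 (limma adjusted p = 0.929), where 0% of 2231 probes were called and 170 had an unadjusted p under 0.05. The interaction of genotype with hypoxia called 0 of 9 genes, where 0.145% of 4844 probes were called. That of genotype with the shift could be tested for ERG9 alone, at 0.38 ± 1.07, where 0% of 2178 probes were called and 213 had an unadjusted p under 0.05. In air and in hypoxia the 95% interval of each of the 9 genes reached past a 2-fold change in at least 1 direction. A change of that size between genotypes was thus not excluded in that direction.

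Ranked by mean normalized level over the groups with both arrays measured, which leaves out ixr1 null shift for all genes but ERG9, the order differed from gene to gene. ERG10 separated into a high set (WT air, WT shift and ixr1 null air) and a low set (WT hypoxia and ixr1 null hypoxia). Of its 4 neighbouring pairs of groups only ixr1 null air and WT hypoxia did not overlap. The ixr1 null hypoxia readings themselves lay 2.57 apart. HMG2 was highest in WT shift, then ixr1 null hypoxia, WT hypoxia, ixr1 null air and WT air, and 3 of those 4 neighbouring pairs did not overlap. IDI1 was highest in WT hypoxia and lowest in WT air. For HMG1, ERG8 and ERG9 no neighbouring groups were apart. The share of all probes with neighbouring groups apart was not counted. Over the 11 arrays other than ixr1 null shift A, the correlation between pairs of the 8 genes with a value on all of them had a median of 0.034 and ran from -0.70 for the lowest pair to 0.55 for HMG2 with IDI1, with 15 of 28 pairs positive. Over all pairs of the 3783 probes with such values the median was 0.021 and 51.8% were positive. These are descriptions over arrays that share groups and scaling.

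The probes whose pattern was most like that of ERG9 over 12 arrays, by Pearson correlation among 2155 probes, were CSS1 (0.909), HXT5 (0.883) and SCS2 (0.860). For the other genes the search was made over 11 arrays, a choice taken after the zeros of ixr1 null shift A had been seen. ERG10 was most like RPS12 (0.97) and RPP2A (0.959), which encode ribosomal proteins, and ALA1 (0.969), which encodes alanyl-tRNA synthetase. HMG2 was most like PAU1 (0.900), SSY5 (0.890) and CCT6 (0.873). The best placed gene of the pathway was IDI1, at rank 245 among the probes most like HMG2.

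Downstream of the 10 genes lie the sterol steps after squalene, several of which use oxygen. Of 15 late sterol genes tested in WT hypoxia against air, 4 fell and 1 rose, where 11.9% of all probes were called in either direction and 6.84% lower, with a median of 0.27 against 0.01 over all probes. ERG1, squalene epoxidase, which consumes ERG9's product with oxygen, read 0.0273 and 0.128 in WT hypoxia against 0.848 and 0.687 in WT air and fell by 3.66 ± 0.61 (limma adjusted p = 0.00366). ERG4, the last reductase to ergosterol, read 0.0671 and 0.0388 in WT hypoxia against 0.332 and 0.391 in WT air and fell by 2.91 ± 0.61 (limma adjusted p = 0.0116). ERG11 (limma adjusted p = 0.0364) and ERG7 (limma adjusted p = 0.0432) were the other two that fell, and neither was called on the deposited scale (limma adjusted p = 0.0848 for ERG11 and 0.112 for ERG7) or with median centring (0.12 and 0.116). For ERG1, ERG4 and ERG7 at least 1 hypoxia reading was below the 10th percentile of its array, so the size of the fold is not fixed.

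ERG28, the scaffold of the C-4 demethylation enzymes, went the other way in both genotypes. It read 2.40 and 2.57 in ixr1 null hypoxia against 0.552 and 0.552 in ixr1 null air, and 1.90 and 2.45 in WT hypoxia against 0.545 and 0.719 in WT air. It rose 5.87-fold in ixr1 null (limma adjusted p = 0.00654) and 3.42-fold in WT (limma adjusted p = 0.0376), and neither was called with median centring (limma adjusted p = 0.121 and 0.176). In ixr1 null hypoxia ERG28 alone of the 15 late genes was called higher and 0 were called lower. Over all probes 6.41% were called higher and 5.58% lower, so these counts are near the background shares. ERG1 read 0.260 and 0.432 in ixr1 null hypoxia against 0.641 and 0.558 in ixr1 null air. No late gene was called for the interaction, where 0.145% of all probes were, so a difference between genotypes is not shown. After the WT shift, against overnight hypoxia, ERG1 was 9.84-fold higher (limma adjusted p = 0.00971) and ERG4 6.83-fold higher (limma adjusted p = 0.0207), with folds not fixed because the same WT hypoxia readings are below the 10th percentile. These were the 2 calls among 14 late genes tested, where 5.29% of all probes were called higher. In ixr1 null, ERG11 was 10.6-fold higher after the shift than in hypoxia (limma adjusted p = 0.00951), where 20.2% of all probes were called, but its log2 difference of 3.40 became 2.45 on the deposited scale (limma adjusted p = 0.0826) and 2.06 with median centring (0.180).

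**Figure D4:**
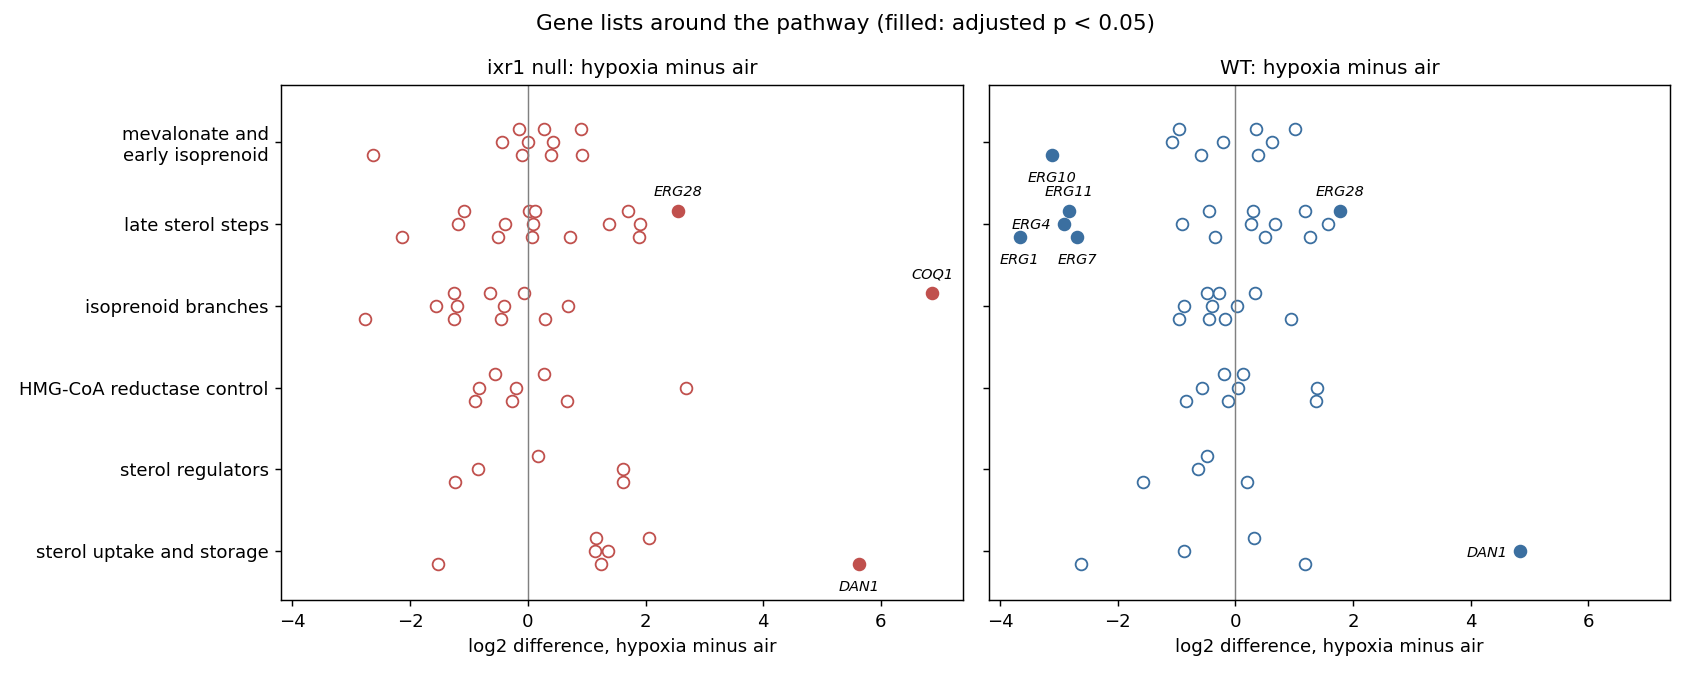
Log2 difference, overnight hypoxia minus air (horizontal axis), of each tested gene in the 10-gene pathway and 5 surrounding lists (rows), for ixr1 null (left) and WT (right); each circle is one gene and filled ones, named, passed an adjusted p of 0.05. In WT the called genes below 0 are ERG10 and 4 late sterol genes, and in ixr1 null no called gene lies below 0.

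The other lists around the pathway held few calls. Of 14 genes that use isoprenoid units in other branches, 12 could be tested in ixr1 null hypoxia against air and COQ1 alone was called, higher, which is near the 6.41% of all probes called higher. COQ1, hexaprenyl diphosphate synthase of the ubiquinone branch, read 4.72 and 5.2 in ixr1 null hypoxia against 0.0731 and 0.0461 in ixr1 null air (limma adjusted p = 0.0150). The second air reading is below the 10th percentile of its array, so the fold is not fixed. It read 1.60 and 1.51 in WT hypoxia against 0.640 and 0 in WT air and could not be tested there, where 0 of 10 genes of the list were called. In ixr1 null shift against hypoxia 4 genes of the list could be tested and 1 was called, where 20.2% of all probes were. That gene, NUS1, of the dolichol branch, was 3.31-fold higher in ixr1 null shift than in ixr1 null hypoxia (limma adjusted p = 0.0265), where the median over all probes was 0.61. Its log2 difference of 1.73 became 1.23 on the deposited scale (limma adjusted p = 0.133) and 0.83 with median centring (0.286), so the call rests on the scaling.

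Of the 8 genes that control HMG-CoA reductase, among them the ubiquitin ligase gene HRD1 and the stabiliser gene NSG1, 0 were called by limma in any comparison, and 1 of the 64 tests made on them had an unadjusted p under 0.05, where the share of all probes called ran from 0% to 20.2% by comparison. Of 6 sterol regulators 5 were on the arrays; UPC2 was not analysed here. In ixr1 null shift against hypoxia 2 of them could be tested and both were called, where 20.2% of all probes were. HAP1, the heme-responsive activator, was 3.35-fold lower (limma adjusted p = 0.0431) and ROX1, the repressor of hypoxic genes in air, 2.95-fold lower (limma adjusted p = 0.0145) in ixr1 null shift than in ixr1 null hypoxia, and HAP1 was not called on the deposited scale (limma adjusted p = 0.0911). No regulator was called against air. Of the sterol uptake and storage genes 7 could be tested in hypoxia against air in ixr1 null and 5 in WT. DAN1 alone was called, 49.2-fold higher in ixr1 null and 28.7-fold higher in WT (limma adjusted p = 0.00376 and 0.00465). Of all probes 6.41% were called higher in ixr1 null and 11.9% in either direction in WT. DAN1 read only 0.0707 and 0.298 in ixr1 null air and 0.0674 and 0.0886 in WT air, so the folds are not fixed. On the deposited scale its ixr1 null log2 difference of 5.62 became 4.95 and was still called. These lists were chosen with earlier results of these data known, and their counts are descriptions.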

How the data were processed

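The authors deposited 1 linear intensity value per open reading frame and array. The sources used here do not give the scanner, background subtraction, spot averaging, scaling or probe sequences. Of 5974 probe names 5571 matched the RefSeq gene table of assembly R64, which was used only for symbols. All per-sample columns of the table were used.

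The 12 arrays were quantile normalized, because the medians of their positive values differed by up to 1.49 log2 units, zeros were then set to missing and the rest transformed to log2. One model with a mean per group was fitted to the 12 arrays with limma 3.58.1 under R 4.3.3, with the prior variance taken from the probes tested in each comparison, and its p-values matched those of lmFit and eBayes within 1e-06. The number of arrays, 2 a group, limits the precision. The script was tested on simulated data. Figures were drawn with matplotlib 3.10.9.

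The 10 genes and the lists were chosen with earlier results of these data known. All 10 are named in every comparison of conditions. Of the other lists around the pathway the text gives counts and names the called genes, up to 2 of smallest p in each direction, and further ones where a list had 5 or fewer calls. For likeness of pattern it names the 3 probes of highest correlation with ERG9, the one gene with a value on all 12 arrays; ERG10 and HMG2, over 11 arrays, were added after the data were seen. Promoter motifs and protein sequences were not analysed here. Alternatives were the deposited scale, median centring, zeros kept at the lowest positive normalized value, a filter on dim probes, only the arrays compared, the array letter as a block, each array left out and, added after the data were seen, a prior variance over all probes.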

Additional observations from a re-analysis of the deposited data

How the results depend on the processing

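With 2 arrays a group, limma's calls hang on single arrays. In WT hypoxia against air, where 1 of the 10 genes was called, the count was 0 with zeros kept and ran from 0 to 1 as each array was left out. It was 0 without WT hypoxia A, WT hypoxia B, WT air A or WT air B, while ERG10 kept its direction in all 19 alternatives and its call in 14. In ixr1 null hypoxia against air the count ran from 0 to 1, since without ixr1 null hypoxia B ERG10 was called (-4.07, limma adjusted p = 0.00640). In WT shift against hypoxia the 1 call became 0 on the deposited scale, with zeros kept, with the replicate block (ERG10 limma adjusted p = 0.0569) and with the prior over all probes (0.0543). It ran from 0 to 1 as arrays were left out, with 0 without WT shift B, WT hypoxia A or B, ixr1 null air A or B, or WT air A or B; without WT shift A the gene called was HMG1 (-4.40, limma adjusted p = 0.0200). With zeros kept, 1 gene, HMG1, was called in ixr1 null shift against air, in ixr1 null shift against hypoxia, in ixr1 null against WT after the shift and in the genotype by shift interaction, where it otherwise was not tested; both its ixr1 null shift readings are zeros set there to the floor.

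Directions of uncalled genes turned as follows. On the deposited scale ERG8 was 0.011 in WT hypoxia and 0.14 in ixr1 null hypoxia, ERG12 was 0.22 in ixr1 null hypoxia and -0.091 in WT shift against air, and ERG9 was -0.22 in ixr1 null shift against air, -0.64 against hypoxia and -0.24 for the genotype by shift interaction. With median centring ERG12 was 0.13 and ERG8 0.049 in ixr1 null hypoxia, ERG10 was 0.0081 in WT shift against air, and ERG9 was -0.71, -1.04 and -0.91 in those same 3 comparisons. As each array was left out, signs also turned in these ranges. In WT hypoxia against air HMG1 ran from -0.49 to 1.14 and ERG8 from -0.80 to 0.39. In ixr1 null hypoxia against air ERG13 ran from -0.38 to 0.39, HMG1 from -1.21 to 0.30, ERG12 from -0.51 to 0.31, ERG8 from -0.96 to 0.67, IDI1 from -0.060 to 0.65 and ERG9 from -0.18 to 0.98. In WT shift against air ERG10 ran from -0.30 to 0.084, HMG1 from -4.07 to 2.26, ERG12 from -0.38 to 0.77, MVD1 from -1.06 to 0.91 and ERG9 from -0.74 to 1.07. In WT shift against hypoxia HMG1 ran from -4.40 to 1.90 and MVD1 from -1.45 to 0.53. For ERG9 the range was -0.41 to 1.49 in ixr1 null shift against air, -0.78 to 1.10 against hypoxia, -1.36 to 0.51 in ixr1 null against WT after the shift and -0.58 to 1.33 for the genotype by shift interaction. The cause of these turns was not tested.

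Counts of called probes over the whole array moved by more than 1.5 times. They ran from 241 to 833 over all alternatives in WT hypoxia against air (593 in the report), 234 to 786 in ixr1 null hypoxia against air (660), 6 to 321 in WT shift against air (35), 9 to 773 in ixr1 null shift against air (44), 111 to 576 in WT shift against hypoxia (442) and 237 to 1202 in ixr1 null shift against hypoxia (450). Between genotypes they ran from 0 to 19 in air (0), 0 to 33 in hypoxia (15) and 0 to 680 after the shift (0), and for the interactions from 0 to 75 with hypoxia (7) and 0 to 678 with the shift (0); the highest counts for the ixr1 null shift arrays came with zeros kept. Arrays with the same letter deviated together in the shift groups (correlation across probes 0.648) but less in air (0.257) and hypoxia (0.189), and the labels name no shared batch for the letters, so the block is only an alternative. It changed no call of the 10 genes other than ERG10 in WT shift against hypoxia. Scaling moved the median of all probes by over 1 in the comparisons with the ixr1 null shift arrays; in ixr1 null shift against air it was 0.30 after quantile normalization and -0.78 after median centring.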
